A study of Mus musculus with 4 samples.

Results

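The genes of retinoid uptake, synthesis, binding, response and degradation were followed across the compartments of mouse dorsal skin at postnatal day 38 (P38). The set held 8 of the 32286 features of the spatial gene expression matrix and was chosen by gene symbol: *Stra6*, *Dhrs9*, *Aldh1a1*, *Aldh1a2*, *Aldh1a3*, *Crabp2*, *Rarg* and *Cyp26b1*. All 4 slices came from 3 mice that carried R26-tdTomato and Krox20-CreERT, a reporter and a tamoxifen-activated Cre driven by *Krox20*, and that had received 4-hydroxytamoxifen at P2. No untreated or wild-type group was among the samples. Each slice held 1 section of every mouse, so the 4 slices are repeated measurements of the same 3 mice, and the p-values do not cover the spread between mice.

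Skin makes retinoic acid, the active form of vitamin A, in the cells that use it. Retinol enters through STRA6 or by diffusion, is oxidised to retinal by short-chain dehydrogenases such as DHRS9, and is oxidised again, irreversibly, by the retinaldehyde dehydrogenases ALDH1A1, ALDH1A2 and ALDH1A3. CRABP2 carries retinoic acid to its nuclear receptors, of which RARG is the main retinoic acid receptor of keratinocytes, and CYP26B1 hydroxylates retinoic acid for removal. Retinoids are known to control keratinocyte differentiation, sebaceous gland size and the hair cycle, and both a lack and an excess of them disturb hair growth.

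Unique molecular identifiers (UMIs) were counted per gene in capture spots that can each cover several cells. The slices held between 19393026 and 26910422 UMIs over 6420 spots, of which 6411 were kept and 5890 fell into 15 regions. The regions were found without the retinoid genes and are called by their leading genes or by the marker list that led them. An epidermis region was led by *Lor*, *Lce1m* and *Krt10*. Beneath it lay a region led by *H2-Ab1*, *Cd74*, *Defb6* and *Col1a1*, called here the *Defb6* region, in which dermal markers summed to 47510 CPM (the UMIs of a gene scaled to 1e+06 UMIs in all). The follicle gave an upper follicle region (*Atp12a*, *Plet1*), an outer root sheath region (*Krt14*, *Trpm6*), 5 regions of shaft and inner root sheath named by a keratin or keratin-associated protein gene, a hair matrix region (*Mt2*, *Ccna2*), a region led by *Mlana*, *Dct* and *Tyrp1*, and a region led by *Wif1* and *Inhba*. Of the 5, those called Krt32 shaft and Krt35 shaft were led by the inner root sheath markers, and the other shaft regions by hair shaft markers. Hair shaft markers summed to 16490 CPM in the Krt32 shaft and 4911 CPM in the Krt35 shaft region, against 4967 CPM in the epidermis. A sebaceous gland region (*Fa2h*, *Far2*, *Scd3*), an adipose region (*Thrsp*, *Adipoq*) and a muscle region (*Acta1*, *Ttn*) completed the set. Neighbouring tissue was mixed in them: inner root sheath markers summed to at least 10300 CPM in every region and to 42240 CPM in the adipose region, where *Adipoq* was at 104 CPM against 73.0 CPM in the outer root sheath region. No region was led by dermal markers in every slice. Slice 1 stood apart: clusters of 277 and 94 spots, with 271 and 84 of these in slice 1, belong to no region, and it gave 83 outer root sheath spots where the others gave 312 to 364. Median depth ran from 8529 UMIs per spot in the upper follicle to 25899 in the *Wif1* region. A lower level in such sums can mean fewer cells of a type or less RNA per cell, and these cannot be told apart. Levels were not compared between genes, since the counts carry no correction that would allow it.

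The 8 genes took different places along the skin. Together they gave between 168 UMIs (*Aldh1a2*) and 7084 UMIs (*Rarg*) in the kept spots. 7 of them passed the filter on low counts, and all 7 differed among the regions in edgeR's quasi-likelihood test, where 94.6% of the 10979 genes tested did. When each region was set against the mean of the other 14, 79 of the 105 pairs of gene and region were called, against 46.0% over all genes. *Aldh1a2* did not pass the filter and is described by its UMIs.

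**Figure D1:**
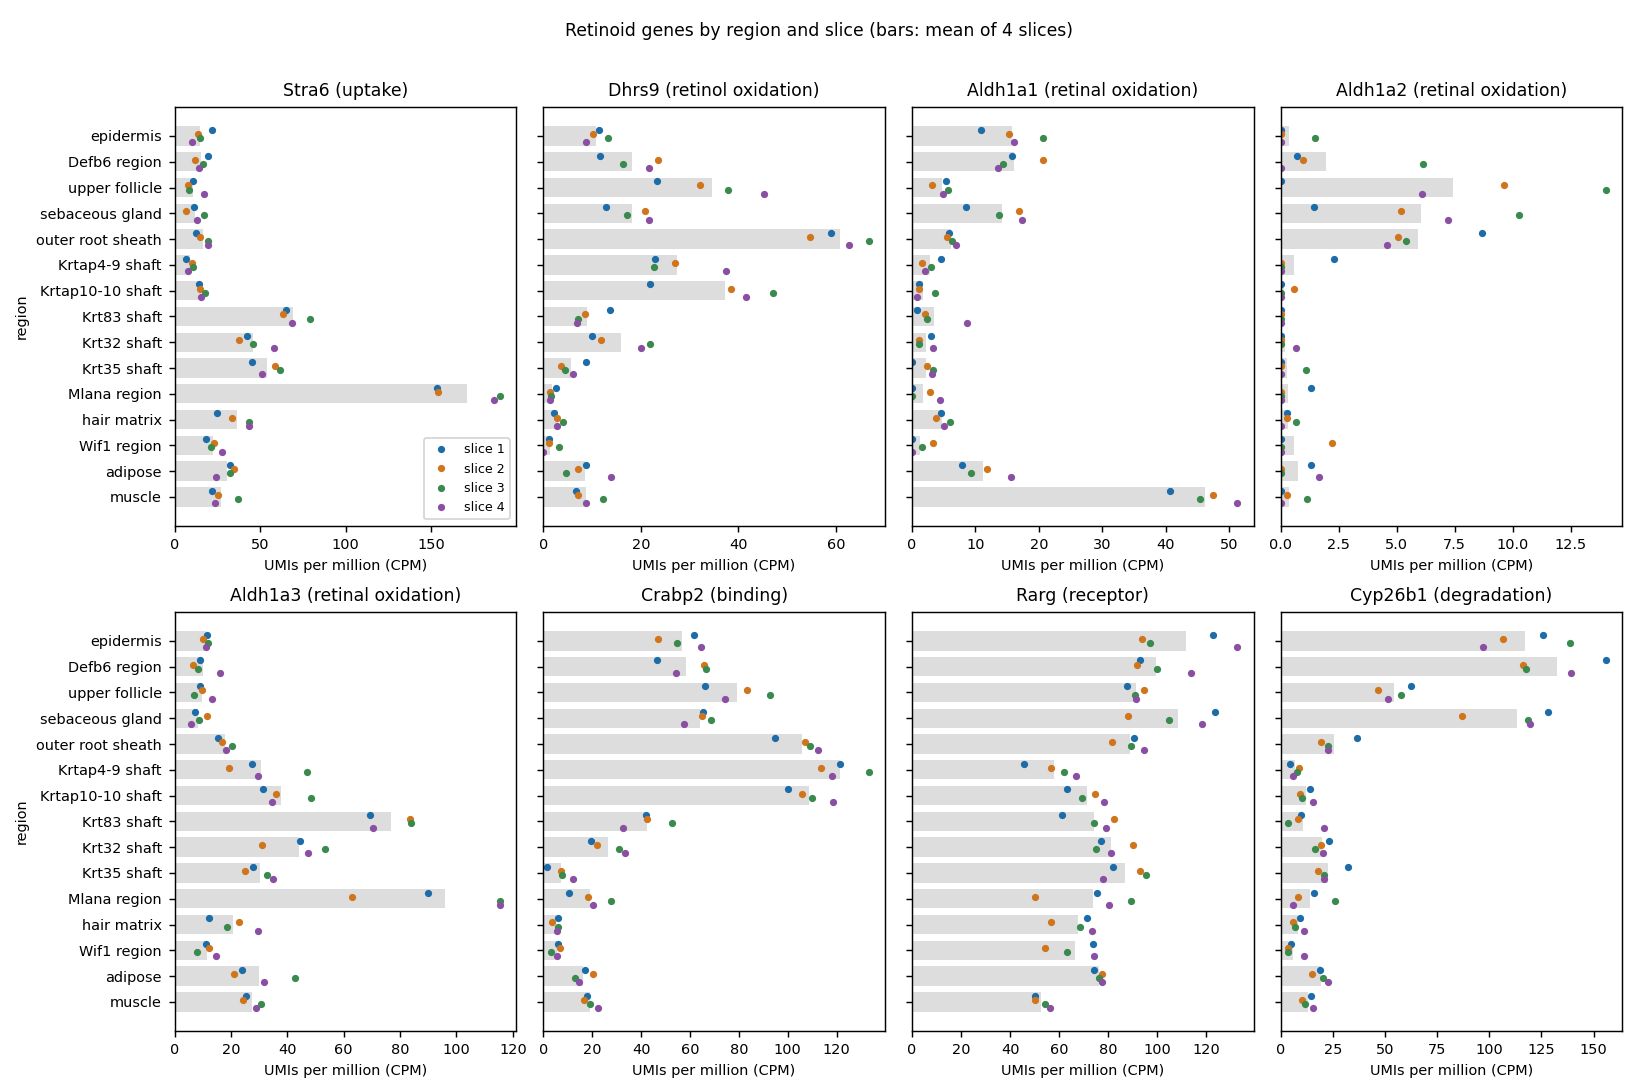
CPM (horizontal axis) of each gene in 15 regions (vertical axis). Bars are means of 4 slices and points are the single slices; Stra6 peaks in the Mlana region (171 CPM), Dhrs9 in the outer root sheath (60.8 CPM), Aldh1a1 in muscle (46.2 CPM) and Cyp26b1 in the epidermis, Defb6 and sebaceous gland regions.

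*Stra6*, the membrane receptor that takes up retinol from its carrier, was highest in the *Mlana* region, with 153, 154, 190 and 187 CPM in slices 1 to 4. The Krt83 shaft region followed with 63.5 to 79.0 CPM. Neither range overlapped that of the next region in order, and the *Mlana* region ranked first in all 4 slices and in each of the 3 section strips (162 to 187 CPM). Below them came the Krt35 shaft, Krt32 shaft and hair matrix regions at 54.2 ± 7.27, 46.0 ± 8.72 and 36.2 ± 9.14 CPM (SD, n = 4), whose ranges overlapped from one to the next. Over the 3 strips the hair matrix ran from 18.3 to 45.1 CPM. The epidermis, upper follicle, sebaceous gland and outer root sheath regions held only 11.1 to 16.7 CPM. Against the mean of the other regions *Stra6* was 2.76 ± 0.10 higher in the *Mlana* region on the log2 scale (± SE, adjusted p = 1.6e-42, edgeR) and 1.80 ± 0.12 higher in the Krt83 shaft region (adjusted p = 3.5e-24). Spots with at least 5500 UMIs were thinned to that number and the others left out, which kept 121 of 123 *Mlana* region spots and 355 of 407 epidermis spots. Of these, 62.5% ± 9.23 (SD, n = 4) in the *Mlana* region and 8.46% ± 3.25 in the epidermis held a *Stra6* UMI. The unthinned shares, over all spots of each region, were 96.8% and 12.5%.

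The *Mlana* region also held cortex and root sheath transcripts: *Krt35* was at 1947 CPM there, its highest level of any region, and inner root sheath markers summed to 33690 CPM. Melanocyte markers summed to 5371 CPM in it and to at most 840 CPM elsewhere. The Krt83 shaft region, second for *Stra6*, held the melanocyte list at 273 CPM. The part of each cell type in the *Stra6* level was not tested.

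*Dhrs9*, which oxidises retinol to retinal, was highest in the outer root sheath region, with 58.9, 54.8, 66.7 and 62.7 CPM, above every other region in all 4 slices and all 3 strips. The Krtap10-10 shaft, upper follicle and Krtap4-9 shaft regions followed at 37.3 ± 10.8, 34.6 ± 9.25 and 27.5 ± 6.88 CPM (SD, n = 4) with overlapping ranges. Its levels in the bulb were low. The hair matrix held 2.26 to 3.95 CPM, the *Mlana* region 1.40 to 2.64 CPM, and the *Wif1* region 0 to 3.25 CPM. Against the mean of the other regions it was 2.49 ± 0.10 higher in the outer root sheath (log2, adjusted p = 1.2e-39, edgeR) and 1.99 ± 0.14 higher in the Krtap10-10 shaft region (adjusted p = 4.4e-23). The level in slice 1, with its fewer outer root sheath spots, lay within the range of the others, and with the 2 clusters of slice 1 joined to this region the log2 difference was 2.41 (chosen after seeing the data).

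The 3 retinaldehyde dehydrogenases, which carry out the irreversible step, peaked in 3 separate places. *Aldh1a1* was highest in the deepest layer, with 40.7, 47.4, 45.5 and 51.3 CPM in the muscle region. No other region reached above 20.6 CPM in any slice. The *Defb6*, epidermis, sebaceous gland and adipose regions formed a second level of 11.1 to 16.1 CPM with overlapping ranges, and the outer root sheath lay at 6.10 ± 0.60 CPM (SD, n = 4) and the other follicle regions lower. Muscle held 3.42 ± 0.11 more *Aldh1a1* than the mean of the other regions (log2, adjusted p = 5.2e-46, edgeR). The *Defb6* region held 1.71 ± 0.22 more (adjusted p = 1e-10). The muscle region was mixed: skeletal muscle markers summed to 34720 CPM in it, smooth muscle and pericyte markers to 948 CPM, Schwann cell markers to 151 CPM, endothelial markers to 95.8 CPM and adipose markers to 3701 CPM. The adipose list separated regions poorly, with 2978 CPM in the adipose and 2865 CPM in the Krtap10-10 shaft region. *Adipoq*, 1 gene of that list, was at 53.1 CPM in muscle and 104 CPM in the adipose region. The part of each cell type in the *Aldh1a1* level was not tested. Of the *Aldh1a1* UMIs in regions, 63.9% lay in muscle and adipose, which held 22.0% of all UMIs.

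*Aldh1a3* lay elsewhere. It was highest in the *Mlana* region (89.9, 63.0, 115 and 115 CPM) and in the Krt83 shaft region (69.3, 83.7, 83.8 and 70.4 CPM), and these ranges overlapped. The other 4 shaft and sheath regions came next at 30.2 to 44.1 CPM. The epidermis, *Defb6*, upper follicle and sebaceous gland regions were lowest, at 8.28 to 11.2 CPM, together with the *Wif1* region at 11.6 CPM. Its log2 difference from the other regions was 2.14 ± 0.13 in the Krt83 shaft region (adjusted p = 5.3e-28, edgeR) and 2.02 ± 0.13 in the *Mlana* region (adjusted p = 1.3e-25). The order of these values turned with library size alone as the scaling, to 1.85 in the Krt83 shaft and 2.16 in the *Mlana* region. *Aldh1a3* shared its leading pair of regions with *Stra6*, and over the 15 region means the 2 genes had r = 0.77 on the log2 scale, given as a description because regions share slices and depth.

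*Aldh1a2* was sparse. Of 168 UMIs, 66 lay in the outer root sheath region, 21 in the upper follicle and 16 in the sebaceous gland, with 1 in the epidermis and none in the Krt83 shaft region. The outer root sheath gave 8.69, 5.04, 5.39 and 4.58 CPM in the 4 slices, and the upper follicle 0, 9.63, 14.0 and 6.10 CPM. The levels of these 2 regions and the sebaceous gland (6.03 ± 3.72 CPM, SD, n = 4) overlapped.

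*Crabp2*, the cytoplasmic protein that delivers retinoic acid to nuclear receptors, was highest around the middle of the follicle. The Krtap4-9 shaft region held 121, 114, 133 and 118 CPM, the Krtap10-10 shaft region 100 to 119 CPM, and the outer root sheath 94.6, 107, 109 and 113 CPM. These 3 ranges overlapped in order, and the lowest of them lay above the highest slice of the upper follicle region next in order (92.6 CPM). The epidermis, *Defb6* and sebaceous gland regions held 56.9 to 64.2 CPM. Over the 3 section strips the epidermis ran from 39.3 to 76.6 CPM. Of all regions 3 were lowest. The hair matrix held 5.93, 3.45, 5.92 and 5.47 CPM, the *Wif1* region 3.25 to 6.64 CPM and the Krt35 shaft region 1.46 to 12.3 CPM. The log2 difference from the other regions was 2.55 ± 0.12 for the Krtap4-9 shaft (adjusted p = 3.4e-35, edgeR) and 2.03 ± 0.08 for the Krtap10-10 shaft (adjusted p = 5.1e-39). With library size alone as the scaling these 2 values drew together, to 2.05 and 1.89. The outer root sheath then moved from 1.76 to 1.86. *Crabp2* and *Dhrs9* followed each other over the 15 regions (r = 0.88), while *Crabp2* and *Stra6* ran opposite (r = -0.57), both as descriptions.

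*Rarg* was the most even of the 8 genes. Its region means ran from 52.8 ± 3.17 CPM in muscle to 112 ± 19.1 CPM in the epidermis (SD, n = 4), and the slice ranges of neighbours in that order overlapped throughout. The slices gave 123, 93.8, 97.3 and 133 CPM in the epidermis and 50.3, 50.1, 54.4 and 56.5 CPM in muscle, with no overlap. Against the other regions it was 0.51 ± 0.08 higher in the epidermis (log2, adjusted p = 7e-08, edgeR) and 0.39 ± 0.09 higher in the sebaceous gland (adjusted p = 0.00015). In the Krtap4-9 shaft region the direction for *Rarg* turned with the scaling, from 0.03 with TMM factors to -0.46 with library size alone, while the median of all genes there moved from -0.07 to -0.56.

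*Cyp26b1*, the hydroxylase that clears retinoic acid, was highest in superficial regions. It was at 156, 116, 117 and 139 CPM in the *Defb6* region, at 126, 107, 139 and 96.8 CPM in the epidermis and at 128, 87.0, 118 and 120 CPM in the sebaceous gland, with overlapping ranges. The upper follicle held 46.6 to 62.6 CPM, apart from both its neighbours in order, and the outer root sheath 19.5 to 36.7 CPM. The hair matrix held 9.32, 5.76, 6.58 and 10.9 CPM. Dermal markers summed to 47510, 28640 and 28100 CPM in the *Defb6*, epidermis and sebaceous gland regions, to 14720 CPM in the upper follicle and to 10660 CPM in the outer root sheath. This was the same order as *Cyp26b1* in these regions, but not beyond them. Muscle held dermal markers at 10590 CPM and *Cyp26b1* at 12.95 CPM, and the Krt35 shaft region 1031 CPM and 22.9 CPM. The part of dermal cells in the *Cyp26b1* level was not tested. Against the other regions it was 2.72 ± 0.09 higher in the *Defb6* region (log2, adjusted p = 1.8e-44, edgeR) and 2.52 ± 0.11 higher in the epidermis (adjusted p = 3.6e-38). Of its UMIs in regions, 53.4% lay in the epidermis, *Defb6* and sebaceous gland regions, which held 13.0% of all UMIs. Over the 15 regions *Cyp26b1* and *Rarg* had r = 0.88, as a description.

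**Figure D2:**
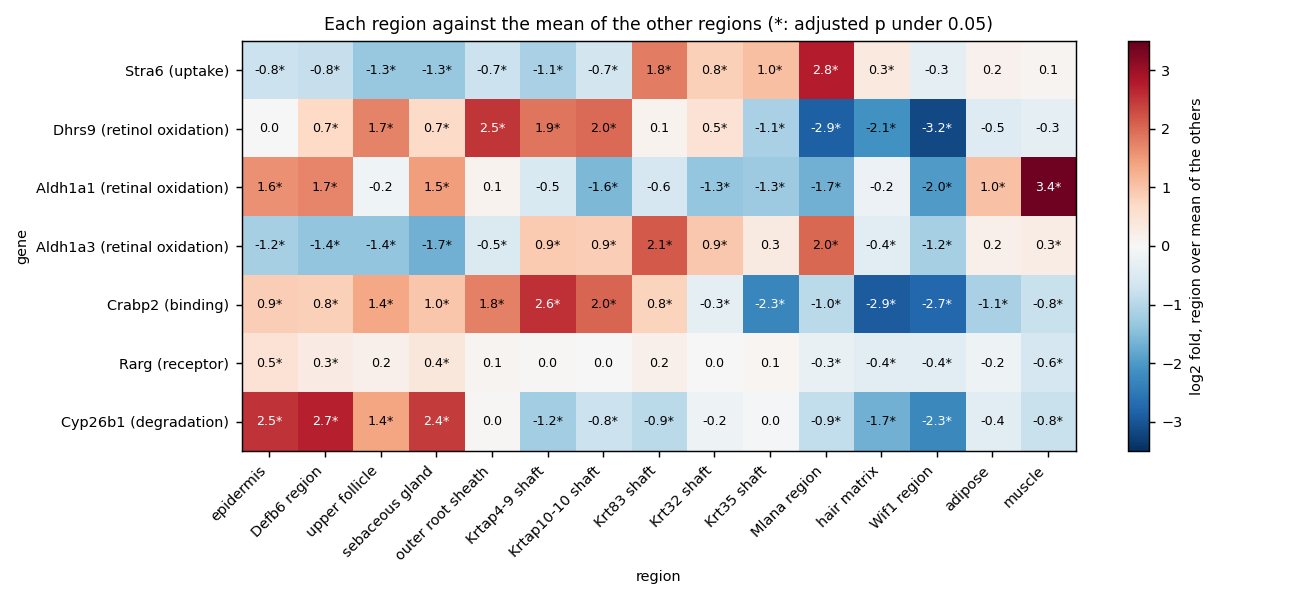
Log2 fold of each region (horizontal axis) against the mean of the other 14 for the 7 genes tested (vertical axis); red is higher, blue is lower, and a star marks adjusted p under 0.05. Stra6 and Aldh1a3 share the Krt83 shaft and Mlana regions, Dhrs9 and Crabp2 share the outer root sheath and Krtap regions, and Cyp26b1 is raised in 4 superficial regions.

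The distance from the epidermis placed the genes without naming deeper regions. Spots were placed by their number of grid steps from the nearest epidermis spot, and steps 0 to 9 were ranked, since farther steps held as few as 1 spot in a slice. Step 0 is the epidermis region itself and the counts are the same, so the profile is no separate support for the regions. *Cyp26b1* was at 117 ± 18.8 CPM at step 0 and 121 CPM at step 1, at 51.3 CPM at step 2 and at 21.5 CPM at step 3. *Aldh1a2* was highest at step 2 (8.7 CPM), *Dhrs9* at step 3 (55.8 CPM) and *Crabp2* at step 4 (112 CPM). *Stra6* and *Aldh1a3* were highest at step 6, at 51.4 and 43.3 CPM. *Aldh1a1* was high at both ends, with 15.7 CPM at step 0, 4.3 CPM at step 4 and 36.4 CPM at step 9.

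The superficial steps 0 to 2 were then set against the deep steps from 6 on, as a log2 ratio with 1 CPM added. It was 2.71 ± 0.15 for *Cyp26b1*, 1.90 ± 0.19 for *Crabp2*, 1.85 ± 0.11 for *Aldh1a2*, 1.80 ± 0.22 for *Dhrs9* and 0.50 ± 0.06 for *Rarg* (SD, n = 4). It was -1.51 ± 0.11 for *Aldh1a3*, -1.46 ± 0.30 for *Stra6* and -0.44 ± 0.17 for *Aldh1a1*. Each gene had the same sign in all 4 slices. An exact two-sided sign-flip test over 4 slices cannot go below p = 0.125, and every gene gave that value.

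**Figure D3:**
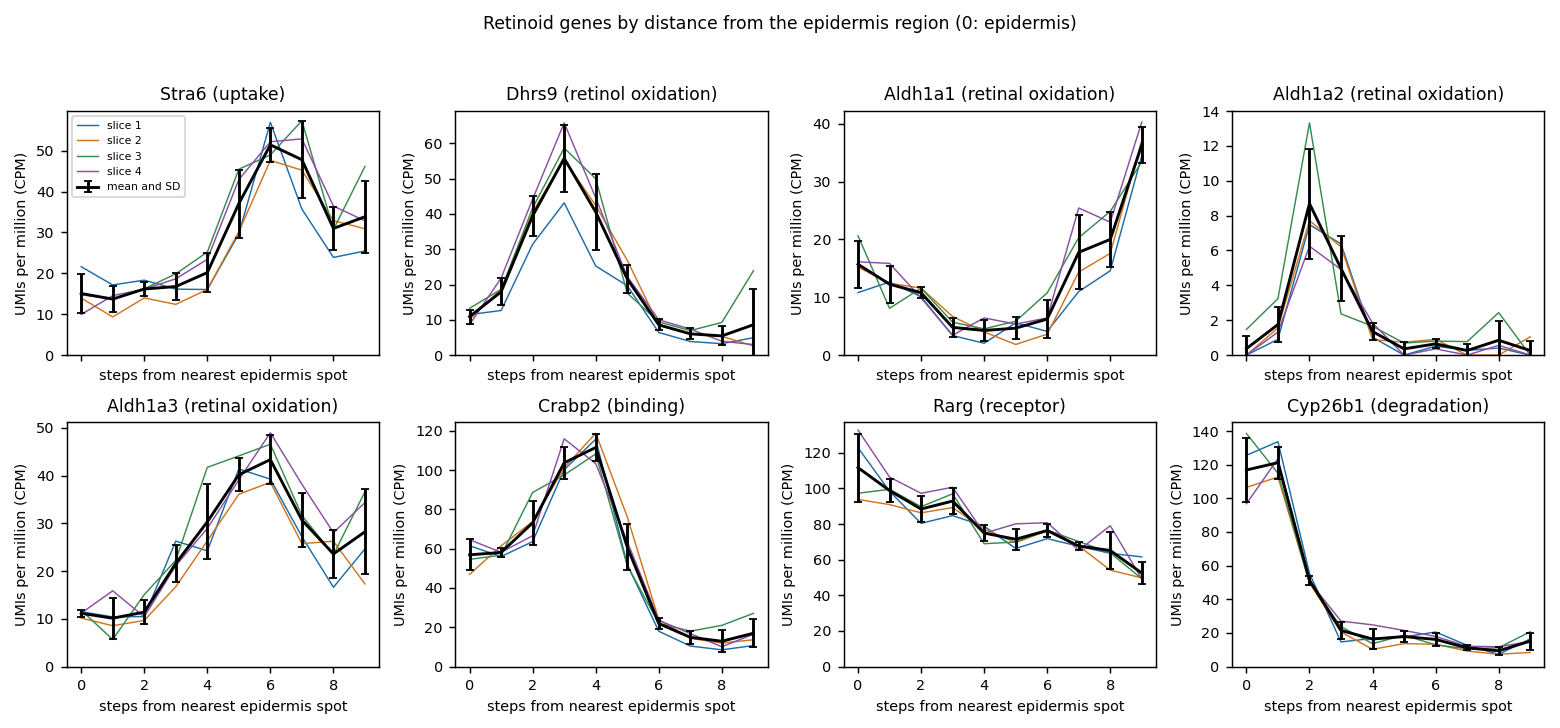
CPM (vertical axis) against the number of grid steps from the nearest epidermis spot (horizontal axis, 0 is the epidermis region). Coloured lines are the 4 slices and the black line is their mean with SD; the peaks move inwards from Cyp26b1 (steps 0 and 1) over Dhrs9 (step 3) and Crabp2 (step 4) to Stra6 and Aldh1a3 (step 6), and steps from 10 on, where some slices hold few spots, are not drawn.

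**Figure D4:**
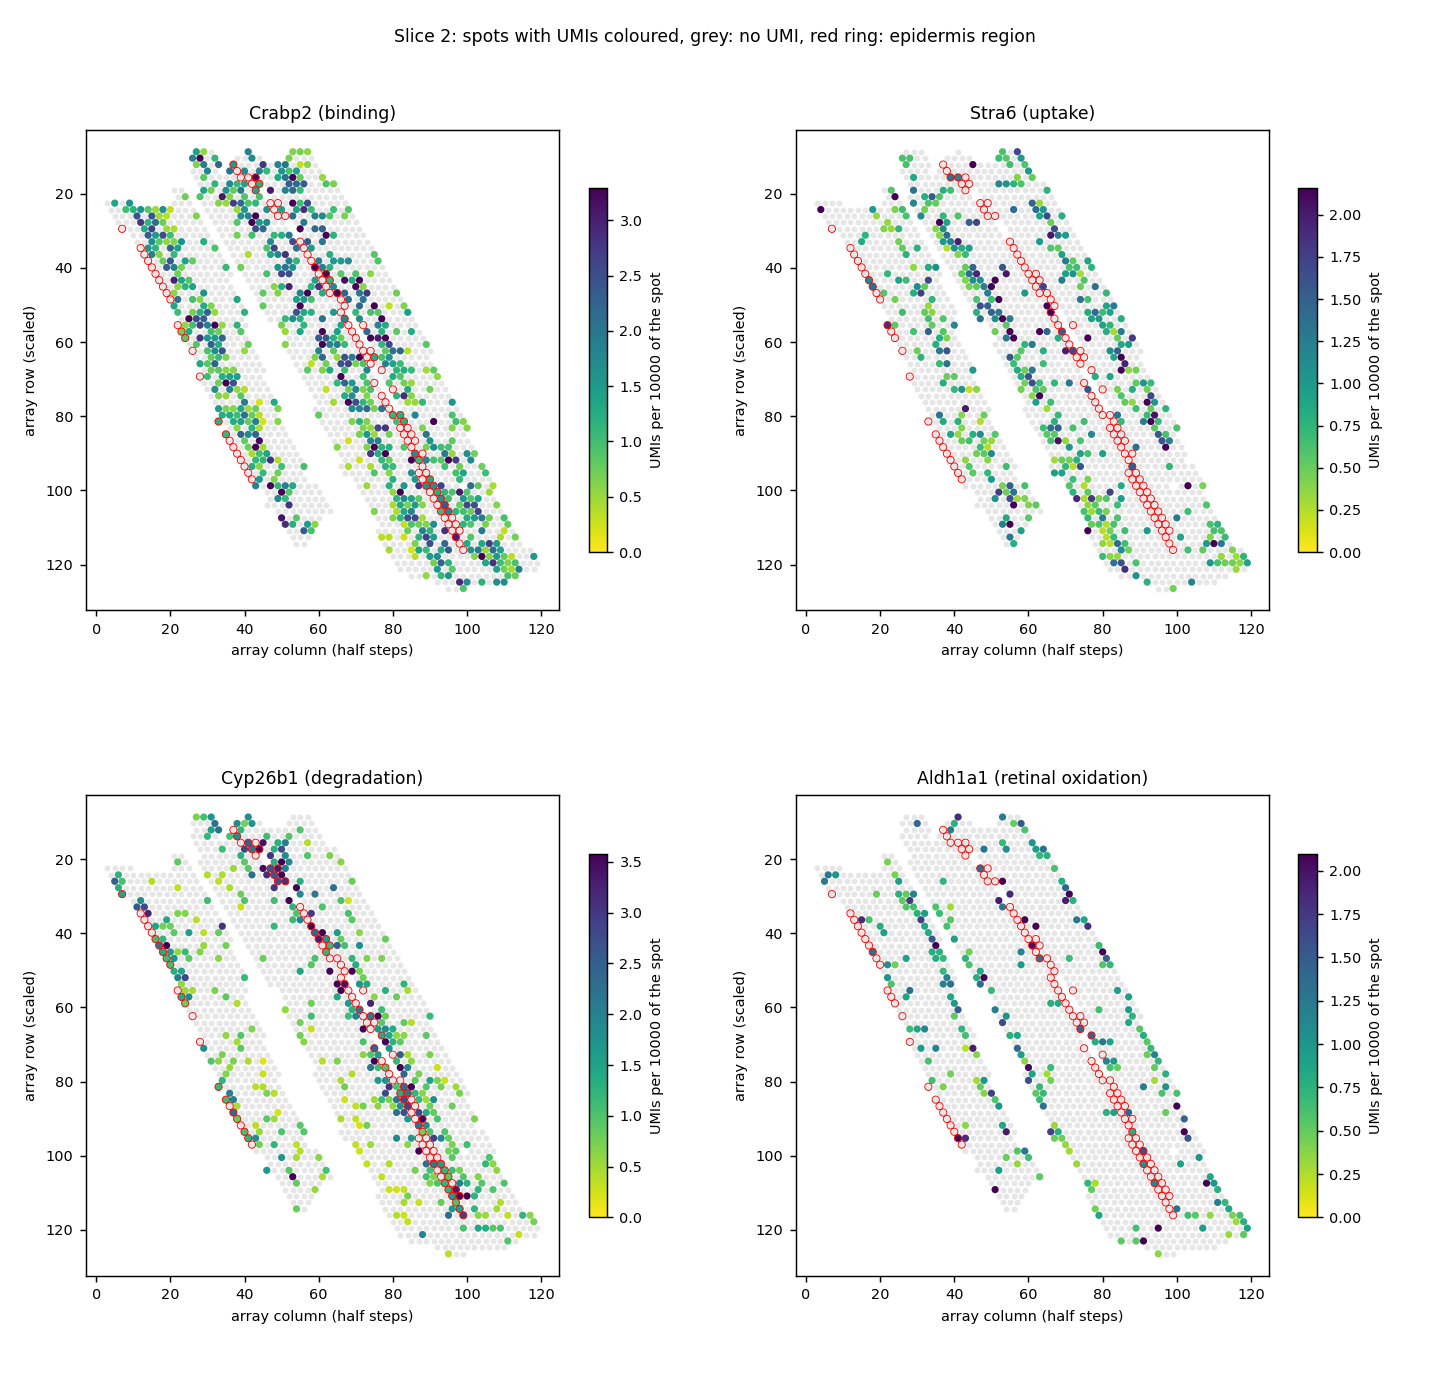
Positions of the spots of slice 2 (axes: array column and array row, scaled to true proportions), with spots coloured by UMIs of the gene relative to all UMIs of the spot, grey where the gene had no UMI, and epidermis spots ringed red. The 3 strips are taken as the 3 sections. Cyp26b1 lies along the epidermis, Crabp2 in a band beside it, Stra6 in a deeper band and Aldh1a1 mainly along the far edge.

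The follicle was compared with the epidermis to ask where follicular and interfollicular sites differ. Outer root sheath, inner root sheath, shaft and matrix regions were weighted equally. The upper follicle, *Mlana* and *Wif1* regions were left out of this follicle mean. Among these, *Cyp26b1* was at 54.5 CPM in the upper follicle and *Stra6* at 171 CPM in the *Mlana* region. *Aldh1a3* (log2 1.34 ± 0.21, adjusted p = 6.3e-08) and *Stra6* (0.84 ± 0.18, adjusted p = 4e-05) were higher in the follicle by edgeR. *Cyp26b1* (-2.98 ± 0.11, adjusted p = 9.9e-42), *Aldh1a1* (-2.04 ± 0.26, adjusted p = 6.4e-11), *Crabp2* (-0.97 ± 0.12, adjusted p = 8e-11) and *Rarg* (-0.51 ± 0.08, adjusted p = 8.7e-08) were lower. That is 6 of 7 genes called, 2 higher and 4 lower, where 52.9% of all genes were called, 25.8% higher and 27.1% lower. The value for *Crabp2* averages opposite parts, since the outer root sheath lay above the epidermis in every slice and the hair matrix far below it. *Dhrs9* did not pass the test (0.34 ± 0.24, adjusted p = 0.24), and its parts were opposite in the same way. Parts of *Stra6* lay on both sides of its 15.1 CPM in the epidermis, with 8.94 CPM in the Krtap4-9 shaft and 69.1 CPM in the Krt83 shaft region.

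Between the sebaceous gland and the epidermis none of the 7 genes was called by edgeR or by DESeq2, where edgeR called 23.5% of all genes, 11.8% higher and 11.7% lower, and 1 had an unadjusted p under 0.05 with each tool. *Dhrs9* was the farthest apart at 0.65 ± 0.31 on the log2 scale (adjusted p = 0.12), and *Cyp26b1* differed by -0.08 ± 0.13. In section strips 1 to 3 the sebaceous gland held *Dhrs9* at 3.3 (2 UMIs), 18.8 and 25.3 CPM. The epidermis held it at 12.5, 12.5 and 7.5 CPM, so the direction turned in strip 1. *Aldh1a2*, outside the test, had 16 UMIs in the sebaceous gland and 1 in the epidermis, and was called when low genes were kept (log2 3.94, adjusted p = 0.0013, edgeR).

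Epithelium, the mean of epidermis, sebaceous gland and the same follicle mean, was compared with adipose, as the main clustering gave no dermal region. *Cyp26b1* (log2 1.68 ± 0.14, adjusted p = 4.2e-19), *Crabp2* (1.58 ± 0.14, adjusted p = 4.8e-17), *Dhrs9* (0.74 ± 0.22, adjusted p = 0.0043) and *Rarg* (0.44 ± 0.08, adjusted p = 4.3e-06) were higher in epithelium by edgeR. *Aldh1a3* (-0.98 ± 0.18, adjusted p = 2.6e-06) and *Stra6* (-0.76 ± 0.16, adjusted p = 2.4e-05) were lower, and *Aldh1a1* was not called (-0.18 ± 0.21, adjusted p = 0.52). The adipose region was mixed, with inner root sheath markers at 42240 CPM and melanocyte markers at 646 CPM in sum. Their part in its *Stra6* and *Aldh1a3* levels was not tested. Over the section strips *Stra6* ran from 20.8 to 44.2 CPM in the adipose region. The 6 of 7 called, 4 higher and 2 lower, stand against 48.4% of all genes, 23.7% higher and 24.7% lower. The directions of *Dhrs9* and *Crabp2* turned where slices were integrated by RPCA (-1.35, adjusted p = 6.7e-19, and -0.31, adjusted p = 0.00031) or regions were drawn by marker scores (-1.08 and -0.15). Both of these settings had a dermal region beside adipose. With RPCA the adipose region took 393 of its 802 spots, and the dermal region 297 of its 464, from the outer root sheath region, and *Krt14*, a basal keratin, was at 3994 and 7022 CPM in them, against 723 CPM in the main adipose region. The calls for *Stra6* and *Aldh1a3* were lost with RPCA (-0.27, adjusted p = 0.15, and -0.38, adjusted p = 0.083), with marker scores (-0.12, adjusted p = 0.73, and -0.35, adjusted p = 0.16) and with the *Defb6* region taken as dermis (-0.31, adjusted p = 0.14, and -0.25, adjusted p = 0.38), which also ended the calls for *Cyp26b1* (0.24, adjusted p = 0.06) and *Dhrs9* (0.20, adjusted p = 0.45). In thinned spots those for *Aldh1a3* (-0.62, adjusted p = 0.11) and *Dhrs9* (0.78, adjusted p = 0.13) were lost. Without replicate 3 the call for *Dhrs9* was lost (0.54, adjusted p = 0.061).

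**Figure D5:**
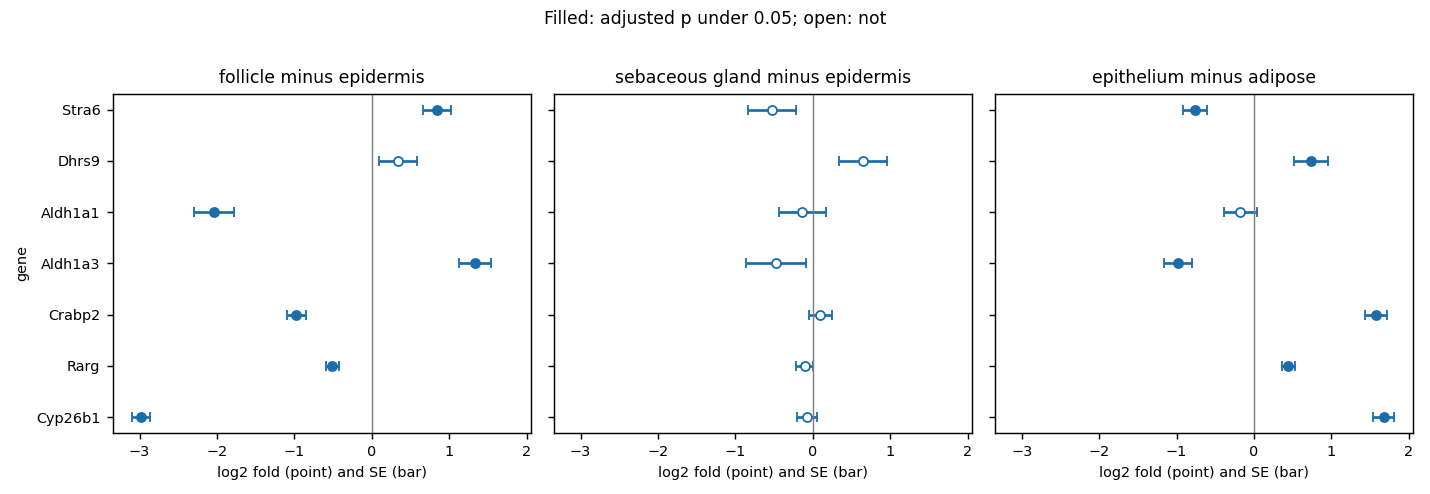
Log2 fold (points, horizontal axis) with SE (bars) of the 7 genes tested (vertical axis) for the follicle against the epidermis, the sebaceous gland against the epidermis and epithelium against adipose. The follicle mean leaves out the upper follicle, Mlana and Wif1 regions. Filled points have adjusted p under 0.05; Cyp26b1 has the largest difference in the first panel (-2.98) and no point is filled in the second.

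The wider retinoid pathway, 48 further genes of which 36 were tested, was read by role. In the same follicle mean against the epidermis 7 were higher and 19 lower, where 25.8% and 27.1% of all genes were (median log2 fold -0.70 against 0.05 over all genes). In the sebaceous gland against the epidermis 18 were higher and 3 lower, against 11.8% and 11.7% of all genes (median 0.56 against 0.01). In epithelium against adipose 19 were higher and 6 lower, against 23.7% and 24.7% of all genes (median 0.50 against -0.02). These are counts over genes chosen with earlier results of the data known.

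Storage and oxidation genes of the pathway differed between the sebaceous gland and the epidermis. Of all genes, 11.8% were higher and 11.7% lower in the sebaceous gland. 5 of 6 genes of retinol esterification and ester release were higher there, among them *Awat2*, an acyltransferase of wax and retinyl ester synthesis (3.38 ± 0.28, adjusted p = 6.2e-19, edgeR), and *Ces1d*, a carboxylesterase (2.85 ± 0.14, adjusted p = 7.9e-33). Of 15 retinol and retinal oxidoreductases tested, 9 were higher and 2 lower, with *Rdh13* at -0.96 ± 0.24 (adjusted p = 0.00093). *Rbp2*, a cellular retinol-binding protein, was also lower (-1.66 ± 0.51, adjusted p = 0.01). *Sdr16c6*, a retinol dehydrogenase of the epidermis, reached 387 ± 47.2 CPM (SD, n = 4) in the sebaceous gland against 107 CPM in the epidermis. *Ces1d* has close paralogs, and reads shared with them are uncertain.

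Of the same oxidoreductases, 10 of 15 were lower in the follicle mean than in the epidermis and 1 higher, where 27.1% of all genes were lower and 25.8% higher. *Rdh9* had the largest difference among them (-3.01 ± 0.14, adjusted p = 1.1e-34, edgeR), with the reservation that it lies among near relatives. The parts differed. Against the mean of the other regions, 8 of the 15 were higher and 1 lower in the upper follicle, which that follicle mean leaves out. In the outer root sheath 6 were higher and 3 lower, and in the hair matrix 2 and 10. Over all pairs of gene and region 46.0% were called in either direction. *Rarres1*, a gene named for its induction by retinoids, was at -4.72 ± 0.24 in the follicle against the epidermis (adjusted p = 1.8e-32) and at 3.33 ± 0.33 in epithelium against adipose (adjusted p = 9.9e-15). *Fabp5*, a fatty-acid carrier that also binds retinoic acid, was higher in the follicle than in the epidermis (1.07 ± 0.06, adjusted p = 3.3e-30). *Rbp4*, the serum retinol carrier, was higher there too (1.11 ± 0.48, adjusted p = 0.045) and lower in epithelium than in adipose (-2.30 ± 0.29, adjusted p = 1.5e-10), its level being 14.4 ± 3.85 CPM in the adipose region. *Rbp2* was also lower in epithelium than in adipose (-1.22 ± 0.25, adjusted p = 2.1e-05), while *Sdr16c6* was higher (2.74 ± 0.14, adjusted p = 3.5e-31).

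Other carriers and storage enzymes had their own places. *Lrat*, which esterifies retinol for storage, was highest in the upper follicle (43.3 ± 6.73 CPM, SD, n = 4) and the outer root sheath (28.3 ± 4.14 CPM). *Crabp1*, the second retinoic acid-binding protein, was highest in the *Wif1* region (86.5 ± 19.9 CPM), where *Crabp2* was at 5.40 CPM. *Rdh10*, a retinol dehydrogenase, was highest in the *Mlana* region (30.7 ± 6.66 CPM), close to its 26.8 ± 4.51 CPM in the sebaceous gland. *Dhrs3*, which returns retinal to retinol, was highest in the Krtap10-10 shaft (147 ± 22.0 CPM) and the outer root sheath (130 ± 7.56 CPM), the regions of high *Dhrs9*.

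The other receptors were read in the same way. *Rxra*, the shared partner of the retinoic acid receptors, was highest in the epidermis (172 ± 14.3 CPM) and sebaceous gland, and *Rxrb* in the epidermis (53.6 ± 11.1 CPM). *Rara* was highest in the *Defb6* region (30.2 ± 4.52 CPM) and the hair matrix (27.4 ± 2.55 CPM). *Rxrg* had 151 UMIs, of which 72 lay in muscle. *Rarb* had 161 UMIs, with 1 in the epidermis, 33 in the outer root sheath and 21 in the Krtap10-10 shaft. *Cyp26a1*, another retinoic acid hydroxylase, had 98 UMIs, of which 44 lay in the outer root sheath (3.97 ± 1.25 CPM, SD, n = 4) and 1 in the epidermis. *Cyp26c1* had none in 91813969 UMIs, which allows up to 0.0327 CPM.

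*Rarb* and *Cyp26a1* are textbook direct targets of retinoic acid receptors, and their start regions are shown for the element that these receptors are known to bind. Windows of 300 bases from 250 bases before to 50 bases after each start (RefSeq, GRCm38.p6) were searched on both strands for the half-site AGGTCA, the variant GGGTCA, the variant AGTTCA or the variant GGTTCA, in any pair repeated in the same direction with 5 bases between. 32 of 32851 windows held such a repeat (0.0974%), and those of *Rarb* (chr14:16575427-16575726, minus strand) and *Cyp26a1* (chr19:37697558-37697857, plus strand) were the only ones among the pathway genes. None of the 11 windows of the 6 main genes listed held it, and *Crabp2* and *Aldh1a3* had no entry. The single half-site AGGTCA stood in 16.3% of all windows and in 2 of these 11, among them that of *Dhrs9* (chr2:69380212-69380511, plus strand). Capitals mark the half-sites of the repeat for *Rarb* and *Cyp26a1*, and the single half-site for *Dhrs9*. Those of *Cyp26a1* and *Dhrs9* read as half-sites on the opposite strand.
Rarb: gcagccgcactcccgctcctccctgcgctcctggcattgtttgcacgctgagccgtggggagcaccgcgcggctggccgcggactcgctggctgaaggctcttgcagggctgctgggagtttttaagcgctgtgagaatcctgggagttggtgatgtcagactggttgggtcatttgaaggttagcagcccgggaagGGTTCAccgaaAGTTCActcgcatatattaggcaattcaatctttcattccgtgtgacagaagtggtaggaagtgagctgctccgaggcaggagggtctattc
Cyp26a1: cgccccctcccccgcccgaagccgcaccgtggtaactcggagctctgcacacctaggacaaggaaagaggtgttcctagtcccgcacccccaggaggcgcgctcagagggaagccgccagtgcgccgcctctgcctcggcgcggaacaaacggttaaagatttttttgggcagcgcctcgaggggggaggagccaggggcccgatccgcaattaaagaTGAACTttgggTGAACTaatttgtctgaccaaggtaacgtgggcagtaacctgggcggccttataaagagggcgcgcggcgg
Dhrs9: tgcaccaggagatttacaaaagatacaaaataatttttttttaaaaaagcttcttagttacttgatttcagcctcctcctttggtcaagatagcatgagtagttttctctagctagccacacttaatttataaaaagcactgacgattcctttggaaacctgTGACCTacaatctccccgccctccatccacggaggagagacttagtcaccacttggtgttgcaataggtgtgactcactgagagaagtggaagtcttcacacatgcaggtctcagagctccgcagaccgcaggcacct
The matches are descriptions of these letters only.

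The genes whose levels were most like those of each retinoid gene were taken over the 60 sums of region and slice, by Pearson's r of log2(CPM + 1), without the pathway genes. *Stra6* was most like *Gpnmb* (r = 0.935), *Gm49425* (r = 0.923) and *Tubb6* (r = 0.892). *Dhrs9* was most like *Gpx2* (r = 0.927) and *Col18a1* (r = 0.926), and *Crabp2* most like *Acp7* (r = 0.927) and *Sox9* (r = 0.911). *Aldh1a3* followed *Smad7* (r = 0.917), *Cyp26b1* followed *Calm4* (r = 0.918) and *Sfxn3* (r = 0.916), and *Aldh1a1* followed *Synpo2* (r = 0.883) and *Des* (r = 0.879). *Rarg* had the weakest likeness, with *Pgrmc2* at r = 0.813. The sums share slices and depth, and no test was made of these values.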

How the data were processed

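Polyadenylated RNA of fresh frozen sections was counted on a spatial array. The authors deposited raw UMI counts for every gene in every spot; Space Ranger 2.0.1 and mm10 are named by the file headers and labels. Spots with under 250 genes were left out. Counts were normalized and clustered with Seurat 5.3.0 (R 4.3.3; 2000 variable genes, 30 components, resolution 1.8, 21 clusters), without the 8 genes and the 48 pathway genes. Clusters with under 10 spots in a slice (4 clusters) stayed out, and a region needed 20 spots in every slice; these 2 minimums, and keeping shaft clusters apart, were chosen after the clusters were seen. Sums of counts over each region of a slice entered the quasi-likelihood test of edgeR 4.0.16, with TMM factors, the filterByExpr filter and Benjamini-Hochberg adjustment over all genes (called at adjusted p under 0.05). The slice was a block, since sums of a slice share its library and sections; their deviations correlated by 0.052 to 0.14 on average. Named pathway genes are a fixed list plus, per comparison, the 2 called genes with the largest fold in each direction, and *Cyp26a1* and *Cyp26c1*, chosen after their values were seen. For each main gene, folds against other regions are given for the 2 highest called regions. The members and lists were chosen with earlier results of these data known. The main clustering gave no dermal region, so the planned dermis and adipose group held adipose alone; RPCA integration and marker scores gave one. On simulated counts for the sebaceous gland against the epidermis, 62.0% of 200 genes changed by 1 on the log2 scale were recovered, with 3.88% false calls. Spot barcodes recur between slices because the arrays share a barcode grid. The files do not tell whether or where they hold the section set aside by the study, so all 4 slices were used in full. DESeq2 1.42.0 was an alternative.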

Additional observations from a re-analysis of the deposited data

How the results depend on the processing

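Of 502 recomputed values of single genes, 479 kept direction and side of the threshold, 12 lost it, 4 gained it and 7 turned. They cover the 3 comparisons and, for each gene, the folds of its 2 highest called regions. Those folds were picked for being high, which raises the share that held. The count of genes called in the sebaceous gland against the epidermis rose from 0 to 1 with no filter on low genes, with RPCA integration, with no minimum of genes per spot and with the 3 strips as units; the gene was *Aldh1a2*, which the main filter removes (log2 fold 3.94, adjusted p = 0.0013 with no filter, edgeR, on 16 against 1 UMIs). The count in epithelium against adipose fell from 6 to 3 with regions by marker scores and, chosen after seeing the data, to 3 with the *Defb6* region taken as dermis. In that comparison *Dhrs9* turned to -1.08 with marker scores and -1.35 with RPCA, *Crabp2* to -0.15 and -0.31, and *Aldh1a1* to 0.34 in thinned spots. In thinned spots the sebaceous gland difference was -0.0092 for *Crabp2* and 0.20 for *Rarg*. The depth profile moved in thinned spots to 1.43 for *Dhrs9*, -0.78 for *Aldh1a1*, 1.69 for *Crabp2* and 0.61 for *Rarg*. With no replicate block the counts were 7 among regions, 6, 0 and 6 in the 3 comparisons and 78 pairs of gene and region. Leaving out 1 slice at a time gave 7, 6, 0, 5 to 6 and 73 to 77; thinning gave 57 pairs. The count over pairs of gene and region was not run where regions had other names, nor the sebaceous comparison at 12 clusters, which had no such region. Depth limits *Aldh1a2* most among the 8 genes, with 168 UMIs.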

Other observations

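The 4 clusters outside the regions held the retinoid genes as well. In the 277 spots of a cluster found almost only in slice 1, *Crabp2* was at 118 CPM, *Dhrs9* at 36.7 CPM and *Cyp26b1* at 15.2 CPM. In a cluster of 131 spots nearly missing from slice 1, *Cyp26b1* was at 47.6 CPM, *Aldh1a1* at 25.0 CPM and *Crabp2* at 90.4 CPM. In the 94 spots of another cluster, mostly of slice 1, *Aldh1a2* reached 10.8 CPM, above its mean in any region. In the 19 spots of a cluster led by Schwann cell markers, *Cyp26b1* was at 45.8 CPM and *Aldh1a1* at 35.6 CPM.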
